A study of Drosophila melanogaster with 46 samples.

Results

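Glutathione S-transferases (GSTs) are enzymes that join the tripeptide glutathione to electrophilic molecules, such as insecticides, plant toxins and the aldehydes left by oxidized lipids, so that these can be exported and cleared. Some members also reduce peroxides, and others serve as ordinary metabolic enzymes or in hormone synthesis. In flies, the delta and epsilon classes are expanded in gene clusters and are the classes best known from insecticide resistance and oxidative stress. The sigma, omega, theta and zeta classes are shared with other animals. Many delta and epsilon genes are targets of the transcription factor CncC, which its partner Keap1 holds back until the cell meets electrophiles or oxidants.

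The family was taken as every row of the deposited count table whose FlyBase symbol is Gst followed by a class letter (D, E, O, S, T or Z) and a number. This rule found 35 genes among the 17490 rows of the table. There were 11 delta, 14 epsilon, 3 omega, 1 sigma, 4 theta and 2 zeta genes. The symbols Mgstl and se, which name other glutathione-using enzymes, do not meet the rule and were described with the rest of the glutathione pathway.

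The data were read counts per gene from fly heads, in 46 libraries of 4 groups. WT was the strain Canton-S w1118 (iso1CJ) at 27 days of age (10 libraries). inc1 (12 libraries) carries a mutation in insomniac (inc), and wakeD2 (12 libraries) a mutation in wide awake (wake). Both are short-sleeping strains and were also 27 days old. By the study's methods they had been backcrossed to the WT strain. WT-old (12 libraries) was the WT strain at 49 days. Each library came from a pool of heads of both sexes at 1 timepoint, every 4 h from ZT0 to ZT44. ZT is zeitgeber time, the hours since the first lights-on of sampling, and the dark hours ran from ZT12 to ZT24 and again from ZT36. No timepoint was repeated within a group, so libraries of different timepoints served as replicates. The WT libraries lacked ZT28 and ZT40, which were not used here. With group and time of day in the model, the p-values of level rest on the spread that is left between these single pools. The time-of-day term was shared by all groups. The spread therefore combines differences between sampling days, between pools and between the groups in their course over the day.

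Library totals ran from 12630462 to 29802881 counts (median 22856683), and 3 counts in the shallowest library make 0.238 CPM (counts scaled to a common library size). The targeted genes behaved as the labels say. The level of inc ran from 8.55 to 15.1 CPM in inc1 and from 66.6 to 104 CPM in WT, and wake ran from 36.1 to 52.1 CPM in wakeD2 and from 66.2 to 80.1 CPM in WT. The groups also differed in the eye-pigment gene w, which is deleted in w1118. It was at 0.149 to 0.737 CPM in WT, at 5.58 to 11.2 CPM in inc1 and at 7.3 to 15.6 CPM in wakeD2, so the mutants differ from WT at w as well as at the targeted gene, and these differences cannot be told apart. All 8 defining genes of head neurons and eye were present in every group. RNA of body tissues was present in some libraries, counted as those in which the median of the midgut list or of the accessory gland list of markers exceeded 1 CPM. These were 11 of 12 wakeD2, 4 of 12 inc1, 3 of 10 WT and 1 of 12 WT-old libraries. In WT-old, RNA of the yolk protein gene Yp1, which is made in females, ran from 16572 to 27288 CPM in the light-hour libraries but from 15.7 to 2799 CPM in the dark-hour libraries, and in WT from 16785 to 30106 CPM. The male-specific RNA roX1 ran from 610 to 822 CPM in the light-hour and from 1244 to 1334 CPM in the dark-hour libraries. Time of day and this difference in the make-up of the WT-old libraries cannot be told apart, so the main WT-old results are given below for light and dark hours as well.

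In bulk heads, fewer cells of a type and less RNA per cell cannot be told apart. Levels below are CPM normalized by TMM, a scaling of edgeR that sets the bulk of genes equal between libraries. Levels of different genes are compared only per kb of exon. A gene entered the tests unless it was under 1 CPM in more than 28 libraries, and 29 of the 35 GST genes entered. The other 6 were GstD4, GstD6, GstD7, GstD8, GstE4 and GstE10. Each test below is edgeR's quasi-likelihood test over all 9969 genes that entered, and a gene was called at a Benjamini-Hochberg adjusted p under 0.05. The 3 comparisons share the WT libraries, so their results are not independent of each other.

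Most delta and epsilon genes lie side by side. All 11 delta genes lie within 20.8 kb of chromosome arm 3R (chr3R:12364776-12385624, Release 6 assembly, BDGP6), with GstD1, GstD9 and GstD10 on the minus strand and the others on the plus strand. The 7 genes from GstD2 to GstD8 each have 1 exon. GstE1 to GstE10 lie within 13.2 kb of 2R (chr2R:18396638-18409835), all on the plus strand except GstE10. GstE11 to GstE14, GstS1, GstT1 and GstT2 lie elsewhere on 2R, the omega genes on 3L, the zeta genes next to each other on 3R, and GstT3 and GstT4 on X. Exons of 7 members share bases with a gene on the opposite strand, from 6 bases for GstE13 to 223 bases of GstT2 with CG12926. The sources used here do not give the strand setting of the read counting or its handling of reads that fit several places, so reads of these genes, and of close paralogs within the clusters, may be assigned in part to a neighbour.

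The GST genes spanned a wide range of levels within WT heads, with GstD1 at the top. GstD1, a DDT-metabolizing enzyme and a common reporter of oxidative stress in flies, had a mean level of 411.3 ± 61.6 CPM per kb (SD, n = 10). GstE12 followed with 309.7 ± 26.9 CPM per kb, which differs from GstD1 by more than the spread of either. GstE9 had 133.3 ± 37.0 CPM per kb. The highest of the omega class was GstO3 (82.8 ± 10.5 CPM per kb), of the theta class GstT4 (71.9 ± 8.83 CPM per kb) and of the zeta class GstZ2 (21.3 ± 6.94 CPM per kb). GstO3 and GstE6 (82.6 ± 16.3 CPM per kb) were neighbours in this order that did not differ beyond their spread. GstS1, the single sigma enzyme, which conjugates the lipid aldehyde 4-hydroxynonenal, had 31.7 ± 2.93 CPM per kb, close to GstE1 with 37.8 ± 8.39 CPM per kb. At the low end, the 6 genes that did not enter the tests ranged from 0.0705 CPM per kb for GstD7 to 0.653 CPM per kb for GstE4. Summed over the family, the level had a median of 1585 CPM in WT, 1599 CPM in inc1, 1522 CPM in wakeD2 and 1853 CPM in WT-old, and the ranges of the 4 groups overlapped.

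**Figure D1:**
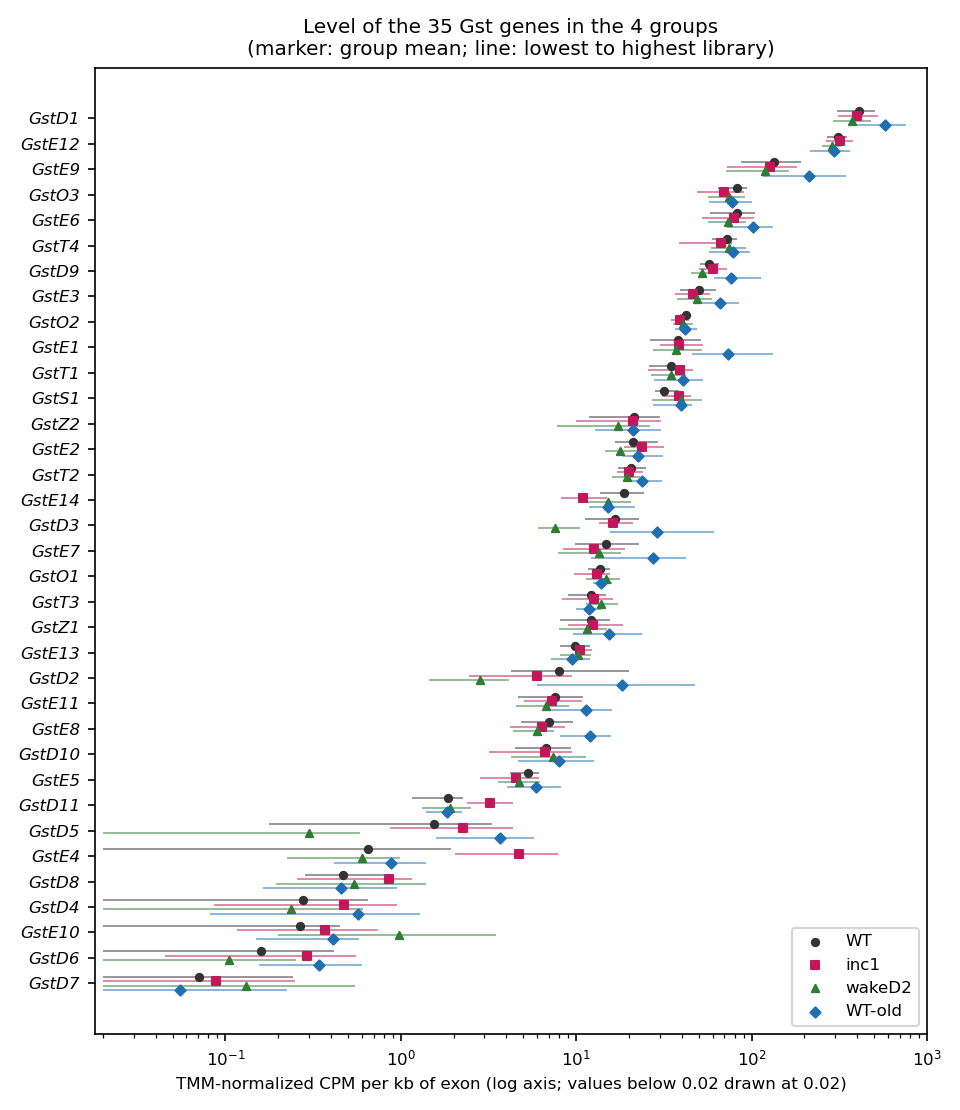
Level of the 35 GST genes in CPM per kb of exon on a log axis, in the order of the WT mean, with a marker for each group's mean and a line from the lowest to the highest library. GstD1 and GstE12 lead in every group, the 6 genes that did not enter the tests fill the bottom rows with GstE4 of inc1 set apart from the other groups, and GstD2, GstD3 and GstD5 of wakeD2 lie to the left of the other groups.

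Marker levels of other cell types moved with the inc1 group. The summed level of 5 head fat body markers ran from 70643 to 141012 CPM in inc1 and from 47879 to 75172 CPM in WT. The median of the 8 neuron and eye markers, in CPM without TMM scaling, ran from 1336 to 1727 CPM in inc1 and from 1765 to 2391 CPM in WT. The ranges of this median lay close together without overlap, whereas those of the head fat body sum overlapped. The TMM-normalized sums of the 8 neuron and eye markers also overlapped (44216 to 51755 CPM and 45232 to 56324 CPM). The part of these markers' cell types in the results of inc1 was not tested.

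In inc1, few GST genes changed: 3 of the 29 tested were higher than in WT and 3 were lower. Over all genes tested, 14.9% were called higher and 18.5% lower in inc1, so the members' 3 and 3 are not above that background. The median log2 fold change of the members was -0.03 beside 0.02 over all genes. Those called higher were GstD11, GstS1 and GstE2. Those called lower were GstE14, GstO3 and GstO2.

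GstE14, known as noppera-bo, is the epsilon enzyme needed to make the steroid hormone ecdysone. In WT its level was at lowest 13.7, at the median 18.8 and at highest 24.4 CPM, and in inc1 8.21, 10.3 and 15.2 CPM. The ranges of inc1 and WT overlapped over the whole day, but not among the light-hour libraries alone, nor among the dark-hour libraries alone. The level in inc1 was 0.588 times that of WT (log2 fold change -0.77 ± 0.0686 (SE), edgeR adjusted p = 7.3e-12). GstE14 was also lower in wakeD2 (10.7 to 20.6 CPM, median 14.9 CPM, 0.812 times WT, edgeR adjusted p = 9.7e-04). In WT-old it was at 12.0 to 21.8 CPM (median 14.6 CPM, 0.815 times WT, edgeR adjusted p = 9.1e-04), with a log2 fold change of -0.39 in the dark-hour libraries, where it was called, and of -0.18 in the light-hour libraries, where it was not. It was the only member called lower in all 3 comparisons with the shared WT libraries.

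GstD11 lies at the end of the delta cluster. Its level was low, from 1.31 to 2.54 CPM in WT (median 2.1 CPM) and from 2.68 to 4.87 CPM in inc1 (median 3.58 CPM). Every inc1 library was above every WT library. The level was 1.76-fold higher in inc1 (log2 fold change 0.82 ± 0.1, edgeR adjusted p = 2.0e-08). In wakeD2 (1.48 to 2.82 CPM) and WT-old (1.57 to 2.49 CPM) it was not called.

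The same separation was seen in GstE4, an epsilon gene that did not enter the tests because it was under 1 CPM in most libraries outside inc1. In WT it ran from 0 to 1.63 CPM (median 0.474 CPM), and in inc1 from 1.72 to 6.65 CPM (median 3.33 CPM), so no inc1 library overlapped WT. It was at 0.188 to 0.83 CPM in wakeD2 and at 0.35 to 1.17 CPM in WT-old, within the range of WT. A looser filter, chosen after seeing the data, kept genes at 1 CPM in at least 10 libraries. GstE4 passed it through the inc1 libraries, all of which were above 1 CPM. The p-value of that fit therefore depends on the difference it would test, and only the effect size is given. GstE4 was 7.43-fold higher in inc1 there (log2 fold change 2.89 ± 0.359). With no filter, where entry did not depend on the level in inc1 in this way, the edgeR adjusted p was 3.6e-08. The 4 inc1 libraries with body-tissue markers ran from 2.42 to 2.63 CPM and the other 8 from 1.72 to 6.65 CPM, all above WT. Within inc1 the 4 highest libraries were ZT16 (6.65 CPM), ZT12 (6.35 CPM), ZT40 (5.62 CPM) and ZT36 (5.48 CPM). A 24 h rhythm in inc1 was not called (edgeR adjusted p = 0.615 with the looser filter and 0.634 with none). GstE3 and GstE5, the genes on either side of it in the cluster, were not called in inc1. GstD8, also outside the tests, ran from 0.208 to 0.934 CPM in inc1 (median 0.738 CPM) and from 0.23 to 0.647 CPM in WT (median 0.33 CPM). With no filter its fold was 1.92 (edgeR adjusted p = 0.0073), over ranges that overlapped.

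The other 4 changes in inc1 were smaller. GstS1 rose 1.23-fold, from 64.4 to 88.0 CPM in WT (median 70.1 CPM) to 70.1 to 103.0 CPM in inc1 (median 91.8 CPM), with an edgeR adjusted p of 0.0051 and overlapping ranges. GstE2 ran from 14.9 to 26.1 CPM in WT and from 16.7 to 28.3 CPM in inc1, a 1.13-fold rise (edgeR adjusted p = 0.0048). GstO3 fell to 0.846 times WT (43.3 to 79.4 CPM against 56.7 to 83.4 CPM, edgeR adjusted p = 0.014). GstO2, which in flies modifies the mitochondrial ATP synthase, was at 0.926 times WT (60.4 to 76.7 CPM against 67.9 to 78.4 CPM, edgeR adjusted p = 0.007). In each of these genes the ranges of both groups overlapped. Its 4-exon gene shares 61 bases of exon with se on the opposite strand, a gene that fell by more in inc1. The 23 members not called ranged in log2 fold change from -0.37 (GstD2) to 0.55 (GstD5).

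Without the libraries that held body-tissue markers, GstD11, GstE2, GstS1 and GstE14 were called in inc1 in the same direction, GstO2 and GstO3 were not, and GstD5 was called higher. In the light-hour libraries alone only GstD11, GstE14 and GstO3 were called.

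**Figure D2:**
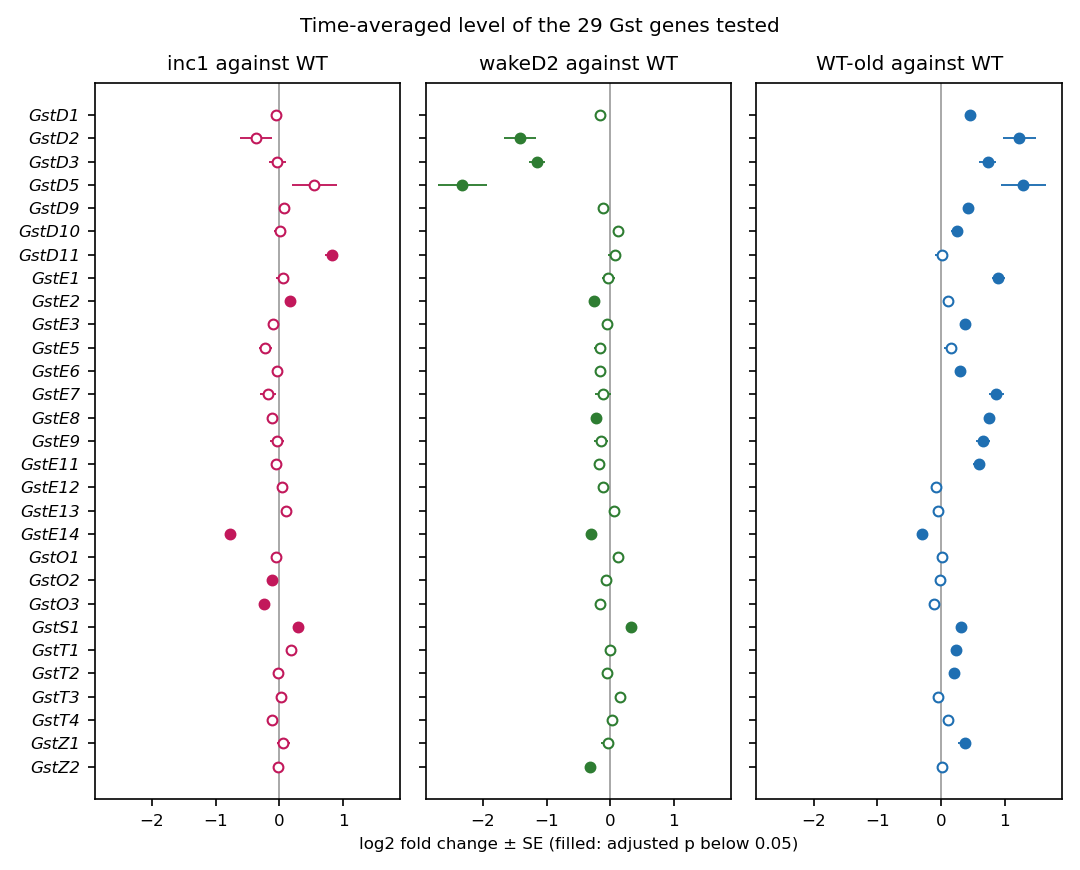
Log2 fold change against WT of the 29 GST genes tested, with the SE as error bars, in inc1, wakeD2 and WT-old; filled points were called at an adjusted p under 0.05. In wakeD2 the points of GstD2, GstD3 and GstD5 stand at -1.42, -1.15 and -2.32, while in WT-old 17 of 29 points are filled to the right of 0.

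In wakeD2, 1 of the 29 members was called higher and 7 were called lower. Over all genes, 12.3% were called higher and 11% lower. The 7 of 29 on the lower side stood above that background and the 1 on the higher side below it, and the median log2 fold change of the members was -0.11 beside -0.01 over all genes. The 3 largest changes were in neighbours of the delta cluster, GstD2, GstD3 and GstD5.

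GstD3 separated the groups most clearly. In WT it ran from 8.37 to 16.9 CPM (median 12.9 CPM), in inc1 from 10.03 to 15.7 CPM (median 11.4 CPM) and in wakeD2 from 4.52 to 7.87 CPM (median 4.75 CPM). Every wakeD2 library was below every WT library. The level was 0.451 times that of WT (log2 fold change -1.15 ± 0.129, edgeR adjusted p = 8.7e-09).

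GstD2 ran from 3.11 to 14.7 CPM in WT (median 4.92 CPM) and from 1.06 to 3.04 CPM in wakeD2 (median 2.13 CPM). These ranges did not overlap, though the highest wakeD2 library lay close to the lowest WT library. The level was 0.374 times that of WT (log2 fold change -1.42 ± 0.252, edgeR adjusted p = 5.1e-05).

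GstD5 rested on few reads. Each wakeD2 library held 0 to 11 counts of it, or 0 to 0.489 CPM (median 0.246 CPM), and the WT libraries held 3 to 60 counts, or 0.149 to 2.76 CPM (median 1.17 CPM). The ranges overlapped through the WT library of ZT20 (0.149 CPM). The level was 0.2 times that of WT (log2 fold change -2.32 ± 0.382, edgeR adjusted p = 1.8e-05). GstD4, which lies between GstD3 and GstD5, ran from 0 to 0.445 CPM in wakeD2 and from 0 to 0.471 CPM in WT, on few counts. With no filter it was not called in wakeD2 (log2 fold change -0.22 ± 0.426, edgeR adjusted p = 0.769). GstD6, GstD7 and GstD8 ran up to 0.197, 0.416 and 1.12 CPM in wakeD2 and up to 0.323, 0.184 and 0.647 CPM in WT.

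The delta genes on the minus strand of the cluster were not called in wakeD2. GstD1 was at 246.6 to 401.9 CPM in wakeD2 and 259.9 to 423.6 CPM in WT (log2 fold change -0.16 ± 0.0628, edgeR adjusted p = 0.067). GstD9 had a log2 fold change of -0.12 ± 0.0651 (edgeR adjusted p = 0.186) and GstD10 of 0.13 ± 0.0883 (edgeR adjusted p = 0.315).

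**Figure D3:**
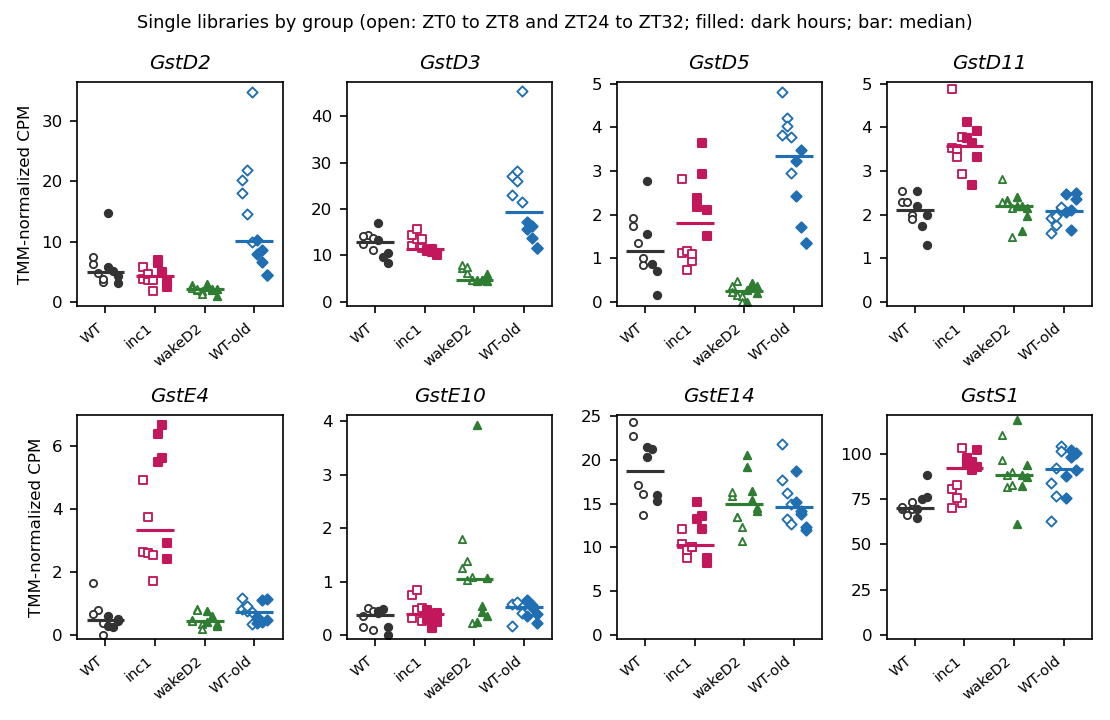
CPM of 8 GST genes in each library by group, with open symbols for light-hour and filled symbols for dark-hour libraries and a bar at the median. The wakeD2 points of GstD2 and GstD3 lie under all WT points, and the inc1 points of GstD11 and GstE4 lie above all WT points, whereas the groups overlap in GstE14 and GstS1.

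The other calls in wakeD2 were of smaller size. GstZ2, of the class whose mammalian member is the maleylacetoacetate isomerase of tyrosine breakdown, ran from 18.1 to 61.2 CPM in wakeD2 and from 27.6 to 69.8 CPM in WT, a range set by its daily rhythm. At each of the 10 timepoints that both groups had, the wakeD2 library was below the WT library. The level was 0.803 times WT (log2 fold change -0.32 ± 0.0531, edgeR adjusted p = 2.4e-05). GstE2 was at 0.843 times WT (12.9 to 20.0 CPM against 14.9 to 26.1 CPM, edgeR adjusted p = 1.7e-04), against a rise in inc1. GstE8 was at 0.852 times WT (4.91 to 8.41 CPM against 5.45 to 10.7 CPM, edgeR adjusted p = 0.0064). GstS1 was 1.26-fold higher (61.1 to 118.7 CPM, median 88.2 CPM, edgeR adjusted p = 0.0025). The 21 members not called ranged from -0.17 (GstE11) to 0.16 (GstT3) in log2 fold change.

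Body-tissue markers moved with the wakeD2 group. The median over libraries was above 1 CPM for 14 of 15 midgut markers in wakeD2 and for 2 of 15 in WT, and the summed level of the list ran from 36.3 to 2109 CPM in wakeD2 and from 28.8 to 175 CPM in WT. All 11 accessory gland markers had a median above 1 CPM in wakeD2 and none of the 11 did in WT, with sums of 0.517 to 1232 CPM and of 0.148 to 44.4 CPM. The wakeD2 library of ZT36 was the one in which the medians of the midgut, accessory gland and testis lists were all 0. There GstD2 was at 2.49 CPM, GstD3 at 4.65 CPM and GstD5 at 0 CPM, each within the range of the other wakeD2 libraries. With the midgut level as a covariate, GstD2, GstD3, GstD5 and GstZ2 were still called, and GstE2, GstE8, GstE14 and GstS1 were not. Between the libraries with body-tissue markers in both groups (11 of wakeD2 and 3 of WT), GstD2, GstD3 and GstD5 were called with log2 fold changes of -1.44, -1.27 and -2.30. The share of all genes called was not counted in either of these fits. The part of body-tissue RNA in the wakeD2 calls was not tested.

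GstS1 was at 118.7 CPM in the wakeD2 library of ZT12, where the midgut median was highest (105 CPM without TMM scaling), and at 61.1 CPM in that of ZT36, where the midgut median was 0. With the midgut covariate its log2 fold change went from 0.33 to 0.12 and it was not called. GstE10, which did not enter the tests, ran from 0.226 to 3.93 CPM in wakeD2 (median 1.04 CPM) and from 0 to 0.511 CPM in WT. Its highest wakeD2 library was ZT12, and its lowest were ZT32 (0.226 CPM), which held body-tissue markers, and ZT36 (0.235 CPM), which did not. With no filter its fold in wakeD2 was 3.51 (edgeR adjusted p = 8.0e-04). The part of body-tissue RNA in the level of GstE10 was not tested.

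In WT-old, 17 of the 29 members tested were called higher than in WT and 1, GstE14, lower. Over all genes, 14% were called higher and 14.7% lower. The median log2 fold change of the members was 0.25 beside -0.01 over all genes. By class, 6 of 7 delta genes were called higher, 7 of 12 epsilon genes, 2 of 4 theta genes, 1 of 2 zeta genes and the sigma gene, but none of 3 omega genes. Markers of other cell types also moved with WT-old. The summed level of 5 head fat body markers, yolk protein genes among them, ran from 168 to 67925 CPM (median 25360 CPM). In WT it ran from 47879 to 75172 CPM (median 65456 CPM). The sum of the 8 neuron and eye markers ran from 39186 to 49877 CPM against 45232 to 56324 CPM in WT. The summed level of the 15 midgut markers ran from 81 to 366 CPM (median 171 CPM) against 28.8 to 175 CPM in WT (median 43.7 CPM), although 2 of 15 had a median above 1 CPM in either group. Those called higher, in light-hour and in dark-hour libraries, were the amylase genes Amy-p and Amy-d. With the midgut level as a covariate all 18 calls were kept. The part of the head fat body and neuron lists in these calls was not tested.

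In the light-hour libraries alone, 15 members were called higher and none lower, against 10.5% and 6.16% of all genes. These 15 were all among the 17. In the dark-hour libraries alone, 11 were called higher and 3 lower (GstE14, GstE12 and GstO3), against 14.2% and 15% of all genes. GstE2 was called higher in the dark hours and not over all hours. Both fits called GstD1, GstD9, GstE1, GstE3, GstE7, GstE8, GstE9, GstE11 and GstS1 higher.

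GstD1 ran from 324.5 to 415.1 CPM in the light hours of WT and from 431.6 to 638.7 CPM in those of WT-old, without overlap. In the dark hours the ranges of 259.9 to 423.6 CPM and 316.6 to 489.8 CPM overlapped. Over all hours it was 1.36-fold higher (log2 fold change 0.45 ± 0.0633, edgeR adjusted p = 6.4e-07), by 1.52-fold in light-hour and 1.23-fold in dark-hour libraries.

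GstE1, an epsilon enzyme that conjugates lipid aldehydes, was higher at each time. In the light hours it ran from 31.4 to 42.6 CPM in WT and from 55.0 to 110.0 CPM in WT-old. In the dark hours it ran from 21.8 to 29.1 CPM in WT and from 38.2 to 45.9 CPM in WT-old. The groups did not overlap in either, and the level was 1.87-fold higher over all hours (log2 fold change 0.90 ± 0.099, edgeR adjusted p = 3.4e-09).

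GstD2, GstD3 and GstD5, the genes that were lower in wakeD2, were among the largest rises in WT-old. GstD2 was 2.34-fold higher over all hours (log2 fold change 1.23 ± 0.258, edgeR adjusted p = 3.1e-04). It ran from 3.29 to 7.37 CPM in the light hours of WT and from 10.04 to 34.8 CPM in those of WT-old. In the dark hours it ran from 3.11 to 14.7 CPM in WT and from 4.4 to 10.2 CPM in WT-old. The light-hour ranges were separate and the dark-hour ranges overlapped. The fold was 4.15 in light-hour libraries (called) and 1.13 in dark-hour libraries (not called).

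GstD3 was 1.66-fold higher over all hours (edgeR adjusted p = 2.6e-05), 2.19-fold in light-hour libraries (21.6 to 45.4 CPM against 11.1 to 14.3 CPM) and 1.25-fold in dark-hour libraries (not called). GstD5 was 2.45-fold higher over all hours (edgeR adjusted p = 0.0047), with a log2 fold change of 1.59 in light-hour libraries (2.95 to 4.81 CPM against 0.85 to 1.93 CPM) and of 0.93 in dark-hour libraries (not called). A test of the 24 h pattern between WT-old and WT, given below, did not call a difference for these genes.

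**Figure D4:**
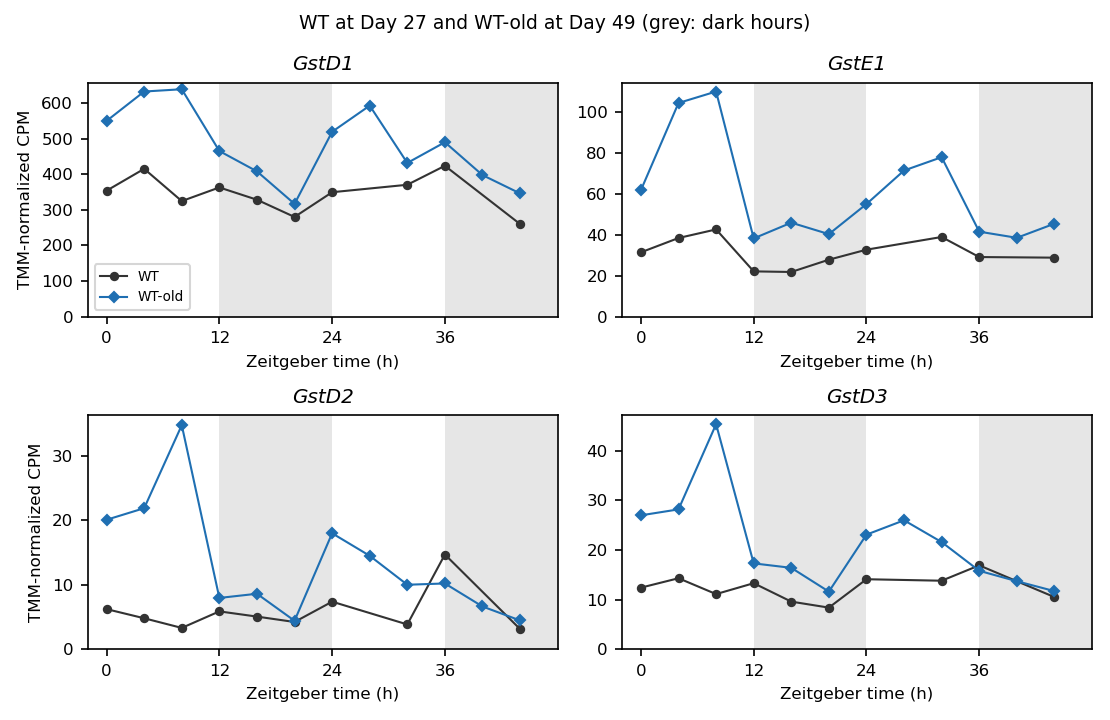
CPM of GstD1, GstE1, GstD2 and GstD3 against zeitgeber time in WT at 27 days and WT-old at 49 days, 1 library a point, with dark hours in grey. WT-old lies above WT at all shared times in GstD1 and GstE1, and in GstD2 and GstD3 the distance is large in the light hours and small or absent in the dark hours, which are also the WT-old libraries with little yolk protein RNA.

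The other epsilon genes called higher in WT-old were GstE7, GstE8, GstE9, GstE11, GstE3 and GstE6. GstE8 ran from 6.25 to 10.2 CPM in the light hours of WT and from 11.5 to 17.7 CPM in those of WT-old, and was 1.69-fold higher over all hours (log2 fold change 0.76 ± 0.0651, edgeR adjusted p = 1.3e-11), the smallest adjusted p of the family in this comparison. GstE7 was 1.83-fold higher, GstE9 1.59-fold, GstE11 1.51-fold, GstE3 1.31-fold and GstE6 1.23-fold, with edgeR adjusted p from 6.5e-07 (GstE7) to 0.002 (GstE6). GstE9 was at 88.3 to 151.6 CPM in the light hours of WT and at 144.9 to 271.6 CPM in those of WT-old. It shares 40 bases of exon with imd, an immune signalling gene on the opposite strand.

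Of the remaining calls, GstD9 rose 1.34-fold, GstZ1 1.29-fold, GstS1 1.24-fold, GstD10 1.19-fold, GstT1 1.18-fold and GstT2 1.15-fold. The edgeR adjusted p ran from 3.3e-06 for GstD9 to 0.026 for GstD10. GstZ1 was 1.57-fold higher in light-hour libraries (called) and 1.05-fold in dark-hour libraries (not called). GstS1 was 1.26-fold and 1.25-fold higher in the light and dark hours. The 11 members not called ranged from -0.11 (GstO3) to 0.15 (GstE5) in log2 fold change. GstE12, abundant in every group, was at 376.1 to 489.6 CPM in WT and 301.5 to 506.3 CPM in WT-old (edgeR adjusted p = 0.366).

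Across the comparisons, 23 of the 29 members were called at least once and 6 were not called in any (GstE5, GstE12, GstE13, GstO1, GstT3 and GstT4). The share of all genes called at least once was not counted, so the 23 are not read as a trait of the family. GstS1 was called higher in all 3, each against the same 10 WT libraries.

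Rhythms over 24 h were tested in each group by edgeR's joint test of a cosine and a sine. The fitted peaks, their SE and the peak to trough ratios below come from another fit, a 24 h cosine on log2 CPM within each group. In WT, 3 of the 29 members were called rhythmic (GstD10, GstZ1 and GstZ2) beside 6.19% of all genes. The same 3 were called in inc1 (5.04% of all genes) and in wakeD2, where GstD3 was the fourth (5.95%). In WT-old 15 were called, beside 19.3% of all genes.

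GstZ2 had the clearest rhythm, with a peak shortly after lights-on and a trough at the start of the night. In WT it was at 69.8 CPM at ZT0, fell to 27.6 CPM at ZT12, and was at 67.5 CPM at ZT24 and 29.9 CPM at ZT36. In inc1 the values at ZT0, ZT12, ZT24 and ZT36 were 62.8, 23.2, 65.1 and 28.4 CPM. In wakeD2 they were 48.8, 18.1, 53.5 and 21.5 CPM, and in WT-old 57.8, 29.7, 70.3 and 32.9 CPM. In every group both dusk values lay below both dawn values. The fitted ratio of peak to trough was 2.68 in WT, 2.76 in inc1, 2.84 in wakeD2 and 2.26 in WT-old. The fitted peak lay at ZT 1.87 ± 0.325 h in WT, 1.43 ± 0.478 h in inc1, 1.6 ± 0.455 h in wakeD2 and 1.38 ± 0.514 h in WT-old (SE), with edgeR adjusted p from 1.2e-07 to 5.1e-06.

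GstZ1, which lies beside GstZ2, peaked earlier, in the late night. Its fitted peak was at ZT 20.8 ± 0.763 h in WT, 19.5 ± 0.9 h in inc1 and 20.7 ± 0.773 h in wakeD2, and its peak to trough ratio 1.78, 1.66 and 1.57 (edgeR adjusted p = 0.0025, 0.0073 and 0.028). In WT-old the fitted peak was at ZT 0.631 ± 1.01 h with a ratio of 1.67 (edgeR adjusted p = 0.0023). The cosine on log2 CPM, which gave these peaks, did not call GstZ1 in any group. Its adjusted p by that cosine was 0.057 in WT, 0.152 in inc1, 0.066 in wakeD2 and 0.085 in WT-old.

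GstD10 peaked in the morning, at ZT 3.15 ± 0.51 h in WT, with a peak to trough ratio of 2.17 (edgeR adjusted p = 0.0025). The ratio was 1.94 in inc1, 2.28 in wakeD2 and 2.24 in WT-old, with peaks from ZT 3.3 to ZT 3.8. By the cosine on log2 CPM GstD10 was called in WT, wakeD2 and WT-old but not in inc1 (cosine adjusted p = 0.215). In WT its lowest libraries were ZT12 (3.91 CPM) and ZT36 (3.92 CPM) and its highest ZT24 (8.17 CPM). GstD3 of wakeD2 was called at an edgeR adjusted p of 0.047 and was not called by the cosine on log2 CPM. Its ratio was 1.66, and its highest libraries were ZT24 (7.87 CPM), ZT28 (7.56 CPM) and ZT0 (7.26 CPM).

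**Figure D5:**
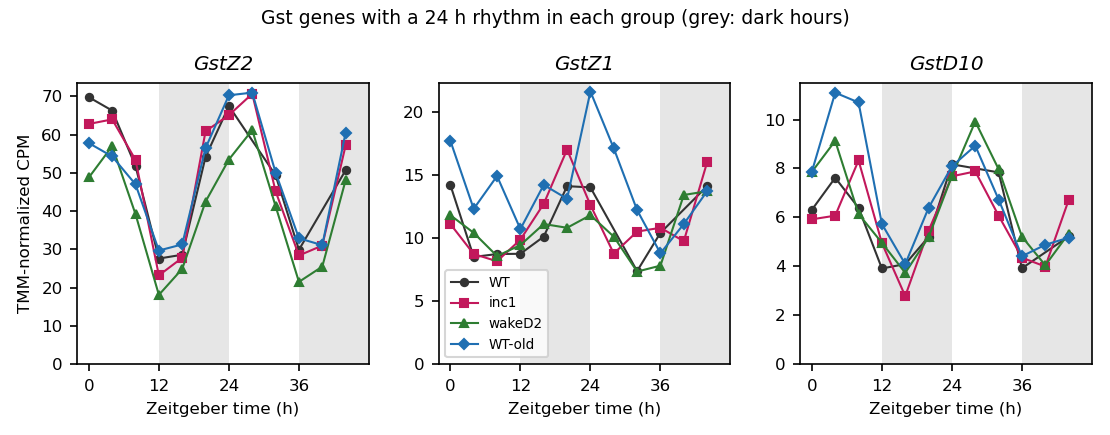
CPM of GstZ2, GstZ1 and GstD10 against zeitgeber time in the 4 groups, 1 library a point, with dark hours in grey. GstZ2 falls by dusk and rises again before lights-on in all groups, with wakeD2 below WT, GstZ1 is highest around the end of the night, and GstD10 is highest in the light hours.

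In WT-old, the 12 members called in addition to GstZ1, GstZ2 and GstD10 were GstD1, GstD2, GstD3, GstE1, GstE3, GstE7, GstE9, GstE12, GstE13, GstO2, GstO3 and GstT4. Their fitted peaks lay between ZT 1.69 (GstE13) and ZT 6.49 (GstT4), within the light hours. The largest ratios of peak to trough were those of GstD2 (3.86), GstE7 (2.54), GstD3 (2.51) and GstE1 (2.44). The dark hours of this group are the libraries with little yolk protein RNA, so a rhythm of expression and that difference cannot be told apart. On the 10 timepoints shared with WT, 9 members were called in WT-old, but the share of all genes called there was not counted. By a 24 h cosine on log2 CPM 7 members were called, among 1037 of all 9969 genes. These were GstD3, GstD10, GstE1, GstE3, GstE13, GstT4 and GstZ2. A version of the rank test JTK cycle, rewritten here, called no member. It also called just 37 of all genes in WT-old and 0 in each other group, so its count says nothing particular about the family. It multiplied each p by 18 combinations of period and lag. The paper, with its own run of JTK cycle, reported rhythmic genes in every group, so the counts of 0 do not stand for that program.

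The difference in rhythm from WT was tested by the interaction of group and 24 h pattern, and edgeR called none of the 29 members in any comparison. At an unadjusted p under 0.05 there was 1 member in inc1 (GstE12), 1 in wakeD2 (GstD3) and 3 in WT-old (GstD2, GstD3 and GstZ1), whose smallest adjusted p was 0.36. Over all genes 0.0301% were called in inc1, 0% in wakeD2 and 1.72% in WT-old. The count was also 0 with DESeq2 size factors, with no filter, on the shared timepoints and with the midgut covariate.

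Around the GST genes, the pathway that makes and uses glutathione held genes called in both directions in inc1 and WT-old. A list of 15 such genes was chosen with earlier results of these data known, and 11 of the 15 entered the tests. In inc1, 2 were called higher and 6 lower, beside 14.9% and 18.5% of all genes. In wakeD2, none was higher and 3 were lower, beside 12.3% and 11% of all genes. In WT-old 3 were higher and 2 lower, beside 14% and 14.7% of all genes. In light-hour WT-old libraries 3 were higher (Trxr1, Prx6b and Gtpx) and 1 lower (se), and in dark-hour libraries 1 was higher (Prx6b) and 2 lower (Gclm and se). Over all genes the shares were 10.5% and 6.16% in light-hour and 14.2% and 15% in dark-hour libraries. Gclc, the catalytic subunit of the enzyme that starts glutathione synthesis, was at 0.875 times WT in inc1 (edgeR adjusted p = 9.1e-05) and 0.902 times in wakeD2 (edgeR adjusted p = 0.0031). Its modifier subunit Gclm was at 0.737 times WT in WT-old (edgeR adjusted p = 7.0e-05), and in light-hour libraries at 0.863 times (not called). MRP, a pump that exports glutathione conjugates, was at 0.784 times WT in inc1 (edgeR adjusted p = 3.0e-06). Prx6b, a peroxiredoxin that removes peroxides, was 1.48-fold higher in inc1 (9.26 to 16.8 CPM against 6.54 to 9.96 CPM in WT, edgeR adjusted p = 4.5e-06) and 1.69-fold higher in WT-old (11.3 to 19 CPM, edgeR adjusted p = 3.5e-08), by 1.82-fold in light-hour libraries.

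The gene of this list that changed most was se (sepia), which encodes an omega-type GST that makes a precursor of the red eye pigments, although its symbol keeps it outside the family rule. In WT it ran from 43.5 to 120 CPM (median 73.8 CPM), in inc1 from 10.6 to 30.8 CPM (median 21.4 CPM), in wakeD2 from 20.5 to 61.1 CPM (median 41.2 CPM) and in WT-old from 22.9 to 75 CPM (median 31.2 CPM). No inc1 library overlapped WT. Its level was 0.268 times WT in inc1, 0.507 times in wakeD2 and 0.506 times in WT-old (edgeR adjusted p = 1.2e-18, 6.1e-10 and 5.2e-10), and in light-hour WT-old libraries 0.652 times. GstO1, GstO2 and GstO3, which lie next to se on 3L, had log2 fold changes between -0.24 and 0.12 in the 3 comparisons.

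The regulators cnc, Keap1 and maf-S moved little. cnc was not called in any comparison, with log2 fold changes of -0.01, -0.05 and 0.02 in inc1, wakeD2 and WT-old. Keap1 was at 0.883 times WT in inc1 (edgeR adjusted p = 4.8e-04) and 0.894 times in WT-old (edgeR adjusted p = 0.0019). maf-S was 1.06-fold higher in inc1 and at 0.921 times WT in WT-old, and in light-hour libraries it was called in neither. Keap1 was called lower in light-hour WT-old libraries, and none of the 3 regulators was called in dark-hour ones.

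Other detoxification genes, a list of 11 cytochrome P450, epoxide hydrolase and UDP-glycosyltransferase genes of which 10 entered the tests, moved in both directions in WT-old. There 1 was called higher (Cyp4e2, 1.19-fold) and 3 lower (Cyp6a2, Cyp6w1 and Cyp12d1-p), and the list's median log2 fold change was -0.12. In light-hour WT-old libraries Cyp4e2 was 1.46-fold higher, and Cyp6a2 and Cyp6g1 were called lower. Cyp12d1-p was not called there, and the log2 fold change of Cyp6w1 turned from -0.35 to 0.06. In dark-hour libraries none was called higher and 3 lower (Cyp6w1, Cyp12d1-p and Jheh2). In wakeD2 none was higher and 4 were lower. The largest of these was Cyp12d1-p, at 0.463 to 1.58 CPM in wakeD2 and 0.458 to 2.5 CPM in WT (0.475 times WT, edgeR adjusted p = 0.0011). In inc1 none was higher and 2 were lower (Jheh1 and Jheh2). Over all genes, 14% were called higher and 14.7% lower in WT-old. The shares were 12.3% and 11% in wakeD2 and 14.9% and 18.5% in inc1, and those of light-hour and dark-hour libraries are given above.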

How the data were processed

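Heads of pooled male and female flies were sequenced by the authors from stranded mRNA libraries. Per the labels, bcl2fastq 2.20, STAR 2.4.2a and featureCounts were used, and raw read counts per gene were deposited without normalization. The counts were aligned by the authors to a Release 6 fly genome. Symbols and positions came from a later annotation of that assembly, which matched 17288 of 17490 identifiers.

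Groups were taken from genotype and age in the labels. edgeR 4.0.16 and DESeq2 1.42.0 were run in R 4.3.3. Tables and plots were made in Python 3.11.15 (matplotlib 3.10.9, scipy 1.17.1, pandas 2.3.3, numpy 2.4.6). The filter dropped a gene if over 28 libraries had it under 1 CPM, and 9969 genes stayed. TMM-normalized counts were tested by edgeR's quasi-likelihood test with group and 6 times of day, or with a 24 h cosine and sine within each group, fitted to all libraries, and Benjamini-Hochberg adjusted at 0.05. The scripts were tested on simulated data. The floor of 3 counts covers counting error only. The SE and SD given include the spread between libraries.

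Alternatives were DESeq2's likelihood ratio test and size factors, no filter, the compared groups alone, no time of day, single sampling days, shared timepoints, a timepoint block and body-tissue settings. For rhythms they were a cosine on log2 CPM and a version of JTK cycle rewritten in Python (periods of 20 to 28 h). Light-hour and dark-hour fits, a filter of 1 CPM in 10 libraries and a fit without the shallowest library were added after seeing the data. Members and gene lists were chosen with earlier results of these data known. Named were all members called in any test, GstD1, GstE1 and GstS1, the highest member of each class per kb, and all members that did not enter the tests.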

Additional observations from a re-analysis of the deposited data

Results flagged for a closer look

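GstD5 in the WT library of ZT20 lay apart from the other WT libraries. It was at 0.149 CPM there, and the gap to the nearest of the other WT libraries was 0.486 of the group's range, beyond Dixon's 95% limit for 10 samples. Of the 29 members examined in WT this was 1, and chance alone sets apart about 1 group in 20. The value rests on 3 counts.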

How the results depend on the processing

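The calls of the 6 members in inc1, the 8 in wakeD2 and the 18 in WT-old remained under DESeq2 size factors, under no filter, in the compared groups alone, on the 10 shared timepoints and without the shallowest library. DESeq2's likelihood ratio test called 14 members in wakeD2. Without time of day in the model 3 were called in inc1 and 4 in wakeD2. In WT-old 12 were called higher and 0 lower in that fit, and GstD10, GstE6, GstE14, GstT1, GstT2 and GstZ1 were no longer called. The shares of all genes called were not counted in the alternative fits of level, except in light-hour and dark-hour libraries of WT-old. On the first sampling day 2 were called in inc1, and on the second day 3 in inc1, 5 in wakeD2 and 9 in WT-old. With the midgut covariate 4 were called in wakeD2. Without the libraries with body-tissue markers none was called in wakeD2 (0), of which 1 library was left, and within those libraries 2 were called in inc1, 3 in wakeD2 and 1 in WT-old, of which 1 library entered. Light-hour libraries gave 3 in inc1 and dark-hour libraries 5 in wakeD2. The direction turned for GstS1 in wakeD2 without body-tissue libraries (-0.25 on the log2 scale), and for GstD9 (-0.00) and GstE14 (0.01) in WT-old within them. The cause of these differences was not tested. Some of these fits held fewer libraries, while those without time of day and with the midgut covariate held all libraries. For rhythms, the rewritten JTK cycle called 0 members in each group, and of all genes 0 in WT, inc1 and wakeD2 and 37 in WT-old. The cosine on log2 CPM called 1 member in inc1, 2 in wakeD2 and 7 in WT-old, and of all genes 198, 348 and 1037. With no filter 2 were called in wakeD2, and on the shared timepoints 9 in WT-old. No interaction was called under any alternative. With timepoint fitted as a replicate block, 6, 9 and 17 members were called in inc1, wakeD2 and WT-old. Same-timepoint libraries of WT and a group deviated together in some pairs and not in others (r over 0.1 in 7, 1 and 5 of 10 pairs). This check cannot decide whether timepoints pair the libraries, and the main fit did not pair them. The median log2 fold change of the 9969 genes stayed between -0.015 and 0.036 in every setting, and over all genes fitted with no filter it was 0.07 in inc1 and 0.06 in wakeD2. Depth limits statements on GstD4 to GstD8 and GstE10, most of whose libraries held few counts.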
